A study of Papio anubis with 12 samples.

Results

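The hairpin miR-1307 (hsa-mir-1307, MI0006444) yields a pair of mature miRNAs, miR-1307-5p (MIMAT0022727) and miR-1307-3p (MIMAT0005951), one from each arm. Its members were the entries of the deposited table whose precursor is hsa-mir-1307, which are 2 of 2234 entries; hsa-mir-1307 is 1 of 1527 precursors. Each arm has a single entry in the table, so neither shares a row with another precursor. Small RNA sequencing had been done on brain tissue, labelled frontal cortex, of 12 fetal baboons (Papio anubis) at day 165 of gestation, with 1 library per fetus. In 6 control fetuses the mother ate freely, and in 6 fetuses the mother was nutrient restricted (MNR) and was fed 70% of what contemporaneous controls ate, per kilogram of body weight. Replicates 1 to 3 of each diet were female and replicates 4 to 6 male, numbered here in the order of the records. All mothers were offered the same complete primate chow. Restriction was of the amount eaten, and all fetuses were taken at the same gestational day. The labels name 1 region for all libraries.

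A miRNA hairpin is cut by Drosha in the nucleus and by Dicer in the cytoplasm into a short duplex with a 5p and a 3p strand. Argonaute usually keeps one strand as the guide and the other is lost, so the ratio of the arms in sequencing reads, the arm balance, reflects which strand is kept. The seed of each arm differs, so the arms pair with different messenger RNAs. In the human genome the miR-1307 gene overlaps ATP5MD, which encodes a small membrane subunit of the mitochondrial ATP synthase; in the baboon RefSeq gene table (assembly Panubis1.0) ATP5MD lies between PDCD11 and TAF5.

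The libraries held 513029 to 1898763 counted reads in controls and 1078720 to 1464660 in MNR, with control replicate 6 the shallowest. These totals count a name again under each of its precursors. With each name counted once they were 299721 to 1079370 in controls and 662996 to 871630 in MNR. Levels are in reads per 1000000 counted reads (RPM), and 1 read was worth 0.527 to 1.95 RPM. The tissue label was checked against marker miRNAs. All 5 neuronal markers had reads in every library, among them miR-9-5p and miR-124-3p, and their summed level was 87740 to 114202 RPM in controls and 96831 to 121694 RPM in MNR. Markers of placenta were at or near 0, with 1 of 3 having any reads and miR-518b and miR-519d at 0 in all libraries. The 4 hindbrain HOX markers, 3 of them with reads and miR-196a-5p at 0, summed to 699 to 7729 RPM in controls and 426 to 2205 RPM in MNR, and the highest sum was in control replicate 6. Control and MNR means were 208 and 11.6 RPM for miR-10a-5p and 2680 and 1087 RPM for miR-10b-5p. They were 0.78 and 0.295 RPM for miR-196b-5p. The cause of these differences was not tested. The labels name no batch, and the submitters' titles number all control libraries before all MNR libraries, so anything that follows that order and diet cannot be told apart.

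Both arms of miR-1307 were present in all 12 libraries, and the 5p arm dominated in each of them. Over all fetuses miR-1307-5p stood at 420 ± 101 RPM (SD, n = 12), rank 95 of the 764 mature miRNAs with reads, between miR-30e-3p (463 RPM) and miR-484 (415 RPM). The 3p arm stood at 72.4 ± 17.1 RPM (SD, n = 12), rank 192, between miR-382-5p (74.2 RPM) and miR-660-5p (72.2 RPM). The SD of either arm over fetuses, which includes the diet difference, exceeded the gap to the next miRNA in the order. Differences between these neighbours within fetuses were not tested, so nothing is read from the exact ranks. A small RNA read spans the whole mature miRNA, so these levels need no length correction, although adapter ligation can favour one sequence over another and the ratio is one of reads.

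miR-1307 was selected on the diet difference in the level of its 5p arm, so the values of both diets are given as a description without a test. In controls, miR-1307-5p was at 396, 360, 335, 297, 407 and 232 RPM in replicates 1 to 6. In MNR it was at 481, 459, 502, 589.6, 472 and 507 RPM. Every MNR fetus lay above every control, and so necessarily within each sex, with control replicate 6 lowest and MNR replicate 4 highest. Of 481 miRNAs averaging 1 RPM or more, 15, or 3.12%, had every MNR fetus above every control. The control mean was 338 ± 65.7 RPM and the MNR mean 502 ± 46.8 RPM (SD, n = 6), a log2 difference of 0.59 ± 0.15 (SE, on the scale of log2(RPM + 1)). The coefficient of variation was 19.4% in controls and 9.32% in MNR.

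The 3p arm, from the same hairpins, was at 74.0, 51.4, 65.8, 78.5, 70.9 and 46.8 RPM in control replicates 1 to 6. In MNR it was at 70.7, 65.8, 75.1, 106, 100.4 and 63.8 RPM. The diets overlapped: MNR replicates 4 and 5, both male, lay above all controls, and the other 4 MNR fetuses lay within the control range. The control mean was 64.6 ± 12.8 RPM and the MNR mean 80.2 ± 18.2 RPM (SD, n = 6), a log2 difference of 0.30 ± 0.19 (SE). In 24 of 36 pairs of an MNR and a control fetus the MNR fetus had more 3p, against 36 of 36 pairs for 5p. Selection on the 5p difference favours the higher count for 5p, so nothing is read from that contrast.

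**Figure D1:**
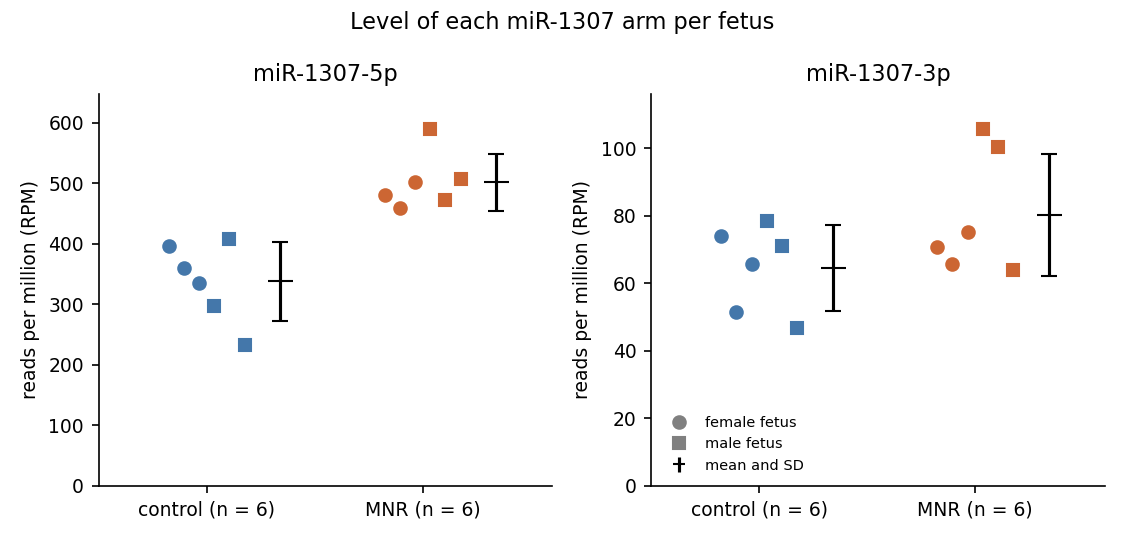
Level of miR-1307-5p (left) and miR-1307-3p (right) in RPM, 1 point per fetus in the order of replicates 1 to 6, circles female and squares male, with the mean and SD of 6 fetuses beside each diet. The 5p levels of the diets do not overlap (232 to 407 RPM and 459 to 589.6 RPM), while the 3p levels do.

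Summed over both arms, the hairpin gave on average 403 ± 72.7 RPM with the control diet and 582 ± 58.8 RPM with restriction (SD, n = 6). The sums ran from 279 to 478 RPM and from 525 to 695 RPM, with no overlap. As 5p makes up most of each sum, this largely repeats the 5p level on which miR-1307 was selected. Among 118 hairpins with both arms measured, 8, or 6.78%, had every MNR sum above every control sum. The difference in the sums was 179 RPM, of which the 5p arm made up 91.3% and the 3p arm 8.73%. For comparison, 5p made up 84.0% of the mean sum in controls, which is its part of the difference if the balance were the same in both diets. Selection on the 5p difference itself favours a higher 5p part, so the 91.3% is not read as a shift in balance. In bulk tissue, fewer or more cells that express miR-1307 and more or less miR-1307 per cell cannot be told apart.

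Most miRNAs were higher in MNR on this scale, and miR-1307 has to be read against that shift. The median log2 difference of the 481 miRNAs was 0.23, with 78.4% above 0. miR-1307-5p lay 0.36 above that median and ranked 68 from the top; miR-1307-3p lay 0.074 above it and ranked 194. Median-ratio scaling brought the median to 0.033, the 5p difference to 0.37 and the 3p difference to 0.087. TMM scaling gave 0.40 for 5p and 0.12 for 3p. miR-1307 was selected through the 5p arm's place among the 13 of 481 miRNAs (2.70%) past the threshold for diet in RPM (limma with Benjamini-Hochberg adjustment), so nothing is read from that place. It did not hold in 5 of the 8 other settings (TMM scaling, median-ratio scaling, no filter, edgeR and DESeq2) or in 9 of the 12 fits that left out 1 fetus.

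Markers of other cell types differed between the diets to varying degrees. The 3 erythroid markers, all with reads in every library, summed to 2151 to 3901 RPM in controls and 3101 to 5688 RPM in MNR. The 3 markers of microglia and leukocytes summed to 99.4 to 167 RPM and 119 to 204 RPM, and the 3 vessel markers to 20418 to 31095 RPM and 12463 to 37737 RPM. The sums of 2 oligodendrocyte markers were 221 to 345 RPM and 287 to 451 RPM, those of 2 choroid plexus markers 593 to 2111 RPM and 738 to 1906 RPM, those of 3 muscle markers 92.8 to 131 RPM and 85.1 to 311 RPM, and those of 2 liver markers 240 to 450 RPM and 322 to 509 RPM. Members of a list could differ in direction. The vessel sum was mostly miR-143-3p, with means of 25632 RPM in controls and 23311 RPM in MNR. The other vessel markers were higher in MNR, miR-126-3p at 1024 and 1124 RPM and miR-145-5p at 169 and 223 RPM. The liver sum was mostly miR-192-5p, at 377 and 413 RPM, while miR-122-5p was at 3.54 and 0.23 RPM. The part of these cell types in the miR-1307 levels was not tested. Without control replicate 6, the shallowest library and the one richest in HOX miRNAs, the 5p log2 difference was 0.49 and the 3p log2 difference 0.22.

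The arm balance asks whether the strands kept their proportion when the hairpin total differed. It compares the arms within a library and so hardly depends on scaling between libraries. The 5p share of miR-1307 reads in control replicate 1 was 84.2% (exact Clopper-Pearson 95% interval 81.2 to 87.0), from 540 reads of 5p and 101 of 3p. It was 87.5% (84.9 to 89.8) in control replicate 2 and 83.6% (80.7 to 86.1) in control replicate 3. In control males it was 79.1% (74.2 to 83.5) in replicate 4, 85.2% (82.4 to 87.7) in replicate 5 and 83.2% (76.1 to 88.9) in replicate 6, which held only 119 reads of 5p and 24 of 3p. Control replicate 4 was lowest of all 12 and control replicate 2 highest among controls.

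In MNR females the 5p share was nearly the same in every fetus, at 87.2% (84.5 to 89.6), 87.5% (84.7 to 89.9) and 87.0% (84.5 to 89.2) in replicates 1 to 3. Their SD, 0.24 percentage points, was below the SD of 1.16 to 1.28 points that counting alone gives each share. Such closeness is therefore no measure of how alike these fetuses were. MNR males spread more widely, at 84.8% (82.0 to 87.3), 82.4% (79.4 to 85.2) and 88.8% (86.3 to 91.1) in replicates 4 to 6. The diets overlapped across most of their range, and the highest share, in MNR replicate 6, came with the lowest 3p level of that diet. Intervals cover counting error within 1 library only, not the spread between fetuses. Since the reads carry no molecular identifiers, the intervals may not cover even that error in full.

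**Figure D2:**
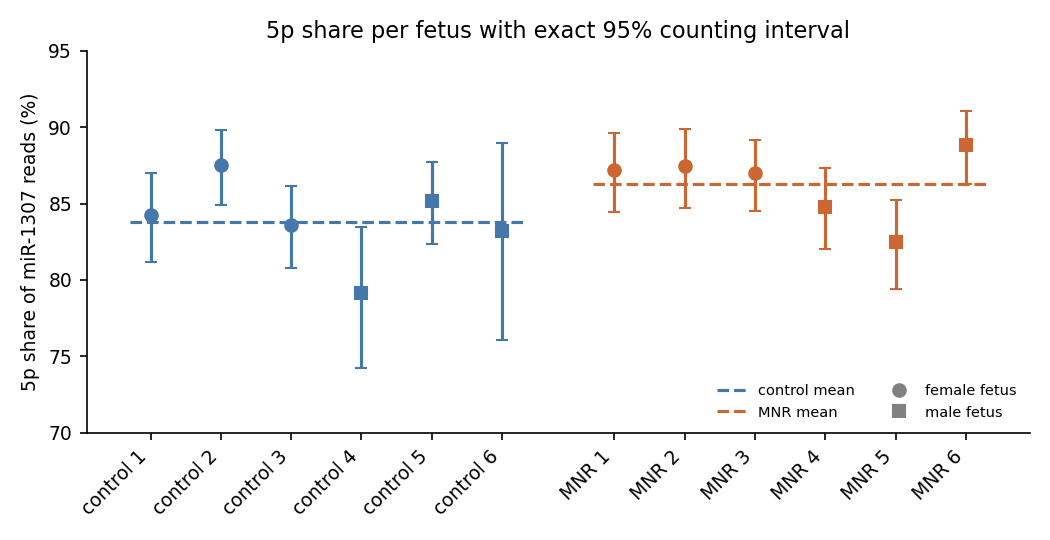
Share of 5p among miR-1307 reads (%, axis from 70 to 95) for each fetus, with exact 95% counting intervals and the mean of each diet as a dashed line; circles are female and squares male. The intervals of control replicate 2 and of all 3 MNR females cover nearly the same range, and control replicate 4 (79.1%) and MNR replicate 6 (88.8%) mark the extremes.

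The mean 5p share was 83.8 ± 2.77% in controls and 86.3 ± 2.28% in MNR (SD, n = 6), a difference of 2.48 percentage points. As a ratio of reads, 5p over 3p was 5.32 ± 1.06 in controls, from 3.79 to 7.01, and 6.45 ± 1.14 in MNR, from 4.70 to 7.95 (SD, n = 6). In 26 of 36 pairs the MNR fetus had the higher ratio, and the median of controls was exceeded by 5 of 6 MNR fetuses. On the log2 scale, with 1 RPM added to each arm, the balance was 2.37 ± 0.29 in controls and 2.65 ± 0.27 in MNR (SD), a difference of 0.28 ± 0.18 (SE). Leaving out control replicate 4 brought the difference to 0.19, and leaving out MNR replicate 5 brought it to 0.37. The SD of the share over fetuses, 2.77 and 2.28 percentage points, can be set beside the SD that counting alone would give at these depths, 1.92 points in controls and 1.28 points in MNR.

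The arms correlated positively in each diet, but no test passed, and with 6 fetuses only a strong correlation could pass. Within controls, Pearson's r between log2 levels of 3p and 5p was 0.539 (exact permutation of pairings, two-sided, p = 0.263) and Spearman's rho 0.314 (exact p = 0.564), n = 6. Within MNR, r was 0.526 (exact permutation p = 0.281) and rho 0.257 (exact p = 0.658), n = 6. Adjusted over these 4 tests the p-values were 0.561 for both r and 0.658 for both rho. Without the 2 control fetuses farthest from the median of 3p, replicates 2 and 6, r over the 4 left, which span a narrower range of 3p, was -0.28, so the positive value was not kept without them. Without MNR replicates 4 and 5 it was 0.193. Under median-ratio scaling r within MNR was 0.176 (exact permutation p = 0.718, n = 6).

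**Figure D3:**
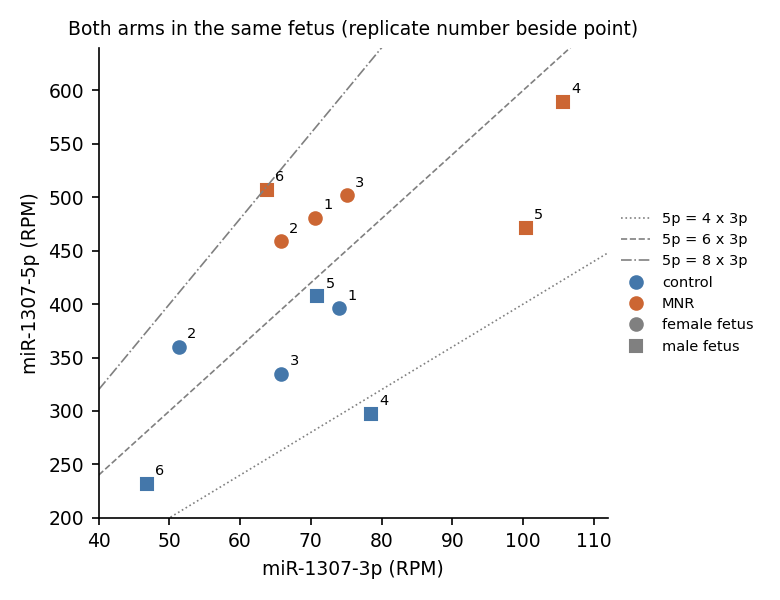
miR-1307-5p against miR-1307-3p in RPM, 1 point per fetus with its replicate number, circles female and squares male; grey lines mark fixed ratios of 5p to 3p. MNR fetuses sit higher than controls of similar 3p level, and MNR replicates 4 and 5 stand to the right with 106 and 100.4 RPM of 3p.

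Sex was not used to select miR-1307, so it could be tested, in 4 cells of 3 fetuses fitted together. miR-1307-5p was at 422 ± 68.2 RPM in females and 418 ± 134 RPM in males, and miR-1307-3p at 67.1 ± 8.67 and 77.7 ± 22.3 RPM (SD, n = 6 per sex). Neither arm passed the test: the female minus male log2 difference was 0.069 for 5p (95% interval -0.25 to 0.39; limma adjusted p = 0.987) and -0.17 for 3p (-0.58 to 0.24; limma adjusted p = 0.987). None of the 481 miRNAs passed for sex (0%), with 17 at an unadjusted p under 0.05. edgeR and DESeq2 on whole reads also called 0, with 17 and 14 at an unadjusted p under 0.05.

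The arm balance was 2.63 ± 0.21 in females and 2.39 ± 0.35 in males (SD, n = 6 per sex, log2 scale). Its female minus male difference was 0.24 (95% interval -0.16 to 0.64; limma adjusted p = 0.945), within the spread between fetuses. Of 118 hairpins, 0 passed for sex in their arm balance (0%) with limma, the one tool run on balances, and 4 had an unadjusted p under 0.05; with 0.5 RPM added in place of 1 RPM, 1 passed.

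Whether the diet difference itself depended on sex was also tested. Female means of 5p were 364 ± 30.7 RPM for controls against 480.5 ± 21.5 RPM for MNR, and male means 312 ± 88.7 RPM against 523 ± 60.5 RPM (SD, n = 3). The log2 difference of the diets in females minus that in males was -0.37 (95% interval -1.0 to 0.26; limma adjusted p = 0.909), and it ran from -0.58 without control replicate 5 to -0.18 without control replicate 6. For 3p the cell means were 63.7 ± 11.5 and 70.5 ± 4.67 RPM in females and 65.4 ± 16.6 and 90.0 ± 22.8 RPM in males (SD, n = 3), and the difference between the sexes was -0.30 (-1.12 to 0.52; limma adjusted p = 0.931), running from -0.52 without MNR replicate 6 to -0.075 without control replicate 6. For the balance it was -0.074 (-0.88 to 0.73; limma adjusted p = 0.984). None of the 481 miRNAs (0%; 24 at an unadjusted p under 0.05) and none of the 118 hairpins (0%; 2 unadjusted) passed this test with limma. edgeR and DESeq2 on whole reads called 0 miRNAs as well, with 29 and 20 at an unadjusted p under 0.05. These intervals are wide, and with 3 fetuses per cell they allow sizeable differences between sexes in either arm.

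Among the 118 hairpins whose 5p and 3p names each sit in 1 entry and average at least 1 RPM, miR-1307 ranked 47 by summed level and 44 by lean towards 5p. The 5p arm had more reads in 68 of these hairpins and the 3p arm in 50. A lean as strong as that of miR-1307 was common: 78 hairpins had a larger absolute log2 balance. Its neighbours in summed level all leaned to 3p. They were miR-140 (606 RPM, mean log2 balance -4.33), miR-136 (592 RPM, -3.04) and miR-654 (556 RPM, -5.04) above it, and miR-27a (491 RPM, -7.61), miR-25 (487 RPM, -7.24) and miR-423 (447 RPM, -1.42) below it. Nearest to it in balance were the endothelial miR-126 (2.48), miR-32 (2.41) and let-7d (2.34), whose 5p arm belongs to the let-7 family of differentiation-linked miRNAs.

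The spread of the miR-1307 balance between fetuses was ordinary for its depth. Its SD within diets was 0.28 on the log2 scale, and the arm with fewer reads, 3p, averaged 72.4 RPM. The 20 hairpins closest in the mean level of their minor arm, at 45.9 to 173 RPM, a set chosen after the values were seen, had SDs of 0.15 to 0.40 with a median of 0.29, and 11 of them had a larger SD than miR-1307. Over all 118 hairpins the median SD was 0.49, many of them with a minor arm of a few reads.

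Other hairpins showed wider diet differences in arm balance than miR-1307. The median absolute log2 difference of the 118 was 0.25, and miR-1307, at 0.28, ranked 47 by size. In 64 hairpins (54.2%) the difference was above 0, with a median of 0.062, and 28 hairpins including miR-1307 had a difference at least as high. The widest were miR-185 (1.06), miR-32 (-0.995), miR-99b (-0.94), miR-337 (-0.92) of the imprinted DLK1-DIO3 cluster, and miR-488 (-0.88). Their minor arms averaged 5.56, 2.895, 63.0, 2.58 and 9.79 RPM in that order, against 72.4 RPM for miR-1307. The differences of miR-185, miR-32 and miR-337 thus rest on few reads of the minor arm. The test for diet called 2 hairpins, or 1.69%: let-7b, with a balance of 5.04 ± 0.34 in controls and 5.81 ± 0.15 in MNR, and miR-99b, at 7.38 ± 0.45 and 6.44 ± 0.089 (SD, n = 6; limma adjusted p = 0.0236 for both). let-7b was named after its values were seen. No hairpin passed without control replicate 2 or 5, or without any of MNR replicates 2 to 6, and 1 passed without control replicate 4. Hairpins whose balances did not overlap between diets also numbered 2 of 118 (1.69%), and miR-1307 was not one of them.

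**Figure D4:**
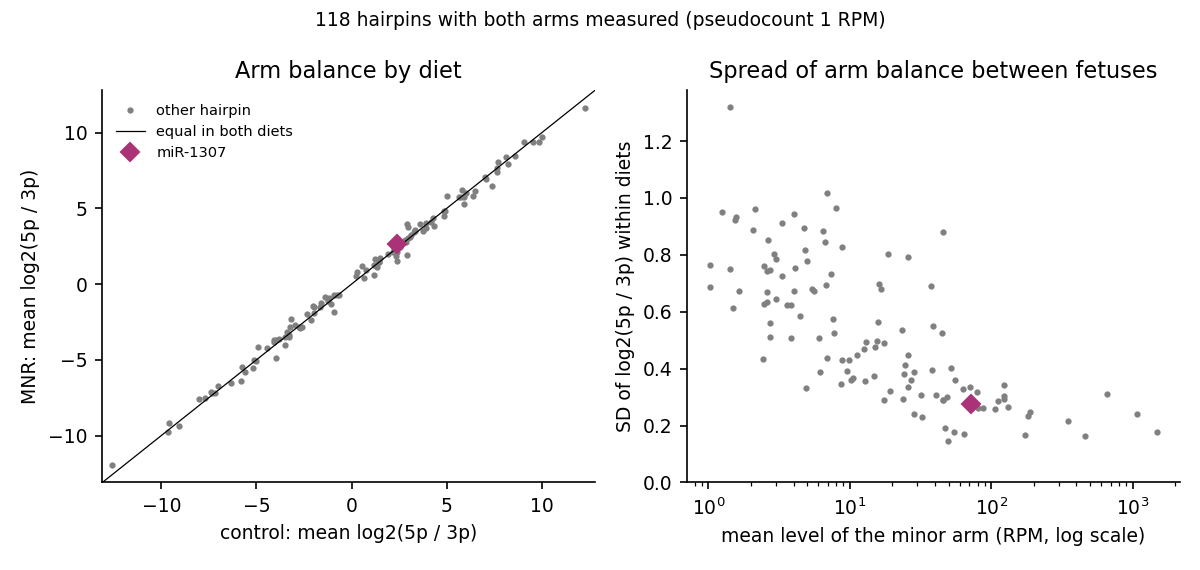
Left, mean log2 arm balance of 118 hairpins in MNR against controls, with miR-1307 as a diamond slightly above the line of equality (2.37 and 2.65). Right, SD of the balance between fetuses of a diet against the mean level of the minor arm (RPM, log axis), where miR-1307 has an SD of 0.28 at 72.4 RPM, in the middle of hairpins of like depth.

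The miRNAs whose log2 levels over the 12 fetuses were most like miR-1307-5p, by Pearson's r, were miR-885-5p (r = 0.923), miR-383 (0.889), miR-9-3p (0.881), miR-106b-3p (0.866) and miR-15b-5p (0.864). miR-9-3p is the partner strand of the neural miR-9, and miR-106b and miR-15b belong to families linked to the cell cycle. Each had a higher mean in MNR. The control and MNR means were 26.9 ± 8.79 and 48.4 ± 15.3 RPM for miR-885-5p, 174 ± 94.5 and 336 ± 69.9 RPM for miR-383, and 1048 ± 130 and 1278 ± 111 RPM for miR-9-3p (SD, n = 6). These coefficients are descriptions over 12 libraries that share the diet difference and the scaling by depth. With the mean of each diet subtracted, the most alike were miR-142-5p (0.868), a miRNA of blood and immune cells, miR-381 (0.842) of the imprinted DLK1-DIO3 cluster, and again miR-885-5p (0.838).

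The 3p arm resembled other miRNAs. Highest were miR-32-3p (r = 0.941), miR-942 (0.874), miR-139-3p (0.868), miR-452-5p (0.849) and miR-30c-2-3p (0.774), the first pair at means of only 2.89 and 1.39 RPM, a few reads per library. With diet means subtracted the first 3 stayed on top, at 0.929, 0.847 and 0.825. The partner arm was not among them: its r was 0.643 over 12 fetuses, and it ranked 76 of 480 miRNAs for 5p and 23 of 480 for 3p. With diet means subtracted its r was 0.492, at ranks 87 and 52.

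A set list of other miRNA genes on the same human chromosome as miR-1307 gave little ground for comparison. Their distances from miR-1307 were not measured here. miR-146b-5p, an immune-response miRNA, was abundant, averaging 4889 ± 1110 RPM with the control diet and 5053 ± 2870 RPM with restriction (SD, n = 6), with diets overlapping (3976 to 6859 RPM and 2151 to 10571 RPM). Its partner miR-146b-3p was at 4.06 ± 1.97 and 4.82 ± 2.03 RPM. miR-3158-3p was at 2.50 ± 1.81 and 2.55 ± 0.37 RPM, and miR-3158-5p and miR-608 had no reads in any library.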

How the data were processed

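Total RNA was turned into small RNA libraries with an Illumina kit, per the labels' protocols. No aligner or counting program is given in the sources used here. The submitters' processing notes list hg18, a human build, without saying what it was used for. Per the file headers, the authors deposited levels of human miRBase names in RPM, 1 column per fetus, rounded to 2 decimals. They also deposited 1 pooled read count per entry. Column totals are 1000000 and include repeats of names listed under several precursors (38.5 to 44.3% of reads), of which the entry with most reads was kept here; miR-1307 has none.

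The value of 1 read in each library was found from its low RPM values, and 100% of non-zero values then came out as whole reads to within 0.006 RPM. limma (3.58.1) with an abundance trend was run on log2(RPM + 1) for 481 miRNAs, and on log2((5p + 1)/(3p + 1)) of 118 hairpins with both arms at 1 RPM or more on average, with Benjamini-Hochberg adjustment and a threshold of 0.05. Diet used 6 against 6 fetuses; sex and its interaction used 4 cells of 3. edgeR (4.0.16) and DESeq2 (1.42.0) on the recovered reads were alternatives. p-values measure the spread between fetuses, whose mothers the labels do not name. Exact permutation tests and intervals used SciPy (1.17.1) and NumPy (2.4.6). The named miRNAs and hairpins follow set rules (likeness, rank, summed level, balance, a list from the same human chromosome). Others are said to be named after their values were seen. miR-1307, the marker list and the tests were chosen with earlier results of these data known.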

Additional observations from a re-analysis of the deposited data

Results flagged for a closer look

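MNR replicate 4, a male fetus, stood apart from the other MNR fetuses in the level of miR-1307. Its miR-1307-5p level of 589.6 RPM lay farther from the next fetus than Dixon's 95% criterion allows for 6 values, with a gap of 0.631 of the group's range against a critical value of 0.625. Its sum of both arms, 695 RPM, did so too, at 0.693 of the range. Its 5p share, 84.8%, lay within the range of the other fetuses. Dixon's criterion was applied to 5 measures in 2 diets, so 10 sets of values, of which chance flags about 1 in 20. Without MNR replicate 4 the diets still did not overlap in 5p, as that fetus is the highest of its group.

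The deposited pooled read count of the table holds more miR-1307 reads than the 12 cortex libraries account for. Beyond them it counts 16577 reads of miR-1307-5p and 2870 of miR-1307-3p, a 5p share of 85.2% (exact 95% interval 84.7 to 85.7, counting error only). The share over the 12 cortex libraries was 85.5% (84.7 to 86.3), from 6549 and 1109 reads. The libraries behind the other reads are not analysed here.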

How the results depend on the processing

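The diet values of miR-1307 were above 0 for each arm in all 21 settings. They ran from 0.33 to 0.65 for 5p and from 0.069 to 0.37 for 3p. Those of the balance were above 0 in all 16 settings, from 0.19 to 0.37. All settings drew on the same libraries, and miR-1307 was selected on the 5p difference. As every MNR fetus lay above every control in 5p RPM, leaving out a single fetus could not reverse the 5p sign. The constant 5p direction is therefore not read as robustness. Nor are the constant directions of 3p and of the balance. Settings that change only which miRNAs or hairpins are tested leave the values of miR-1307 as they were. The balance also contains the 5p level on which miR-1307 was selected. In RPM, 78.4% of the 481 miRNAs also had a diet difference above 0. The lowest 5p value, 0.33, came from DESeq2 on recovered reads, whose scaling brings the median of all miRNAs near 0. No sex or sex by diet test of miR-1307 passed under any setting. The sex difference of 5p ran from -0.028 (without control replicate 6) to 0.17 as single fetuses were left out. The sex by diet difference of the balance ran from -0.24 to 0.13, above 0 without control replicate 2 (0.066), control replicate 4 (0.088) or MNR replicate 6 (0.13). The correlation of the arms in controls fell to -0.28 without the 2 farthest fetuses; the cause of these reversals was not tested, beyond the loss of those fetuses.

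The number of miRNAs past the threshold for diet, 13, depended on the processing: 1 without a filter on low values, 3 with TMM scaling, 3 with median-ratio scaling, 3 with edgeR and 8 with DESeq2, and 1 to 26 as single fetuses were left out. That of hairpins, 2, ran from 0 to 3 as single fetuses were left out. Without a filter more miRNAs were tested (764 against 481); for the other settings the cause was not tested. Counting each name once was chosen after seeing the data. No paired analysis was possible because the labels give no replicate numbers that groups share. Depth limits the 3p arm most, with 24 reads in control replicate 6.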
